A study of Homo sapiens with 6 samples.

Results

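Transcripts of 10 autophagy genes, of the 29476 genes with counts, were compared between A549 cells with and without knockdown of DDX17. The genes were chosen by symbol, without a threshold on measured values, as receptors that carry cargo to the autophagosome, ATG8 genes and core autophagy factors. They were SQSTM1, NBR1, MAP1LC3B, GABARAP, GABARAPL1, GABARAPL2, ULK1, BECN1, ATG5 and WIPI1. All 10 were found by symbol, and all 10 were among the 15615 genes that passed the expression filter.

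Polyadenylated RNA of A549 cells, an established human lung adenocarcinoma line, was sequenced to compare cells depleted of the RNA helicase DDX17 with control cells. The siCtrl group comprised 3 cultures transfected with a nontargeting siRNA, and the siDDX17 group 3 cultures transfected with an siRNA against DDX17. Both groups received a lipid transfection reagent in the same medium, and 48 h after transfection is the harvest time stated for RT-qPCR. A single siRNA per group was used, so an effect of DDX17 loss and an effect of that siRNA on other transcripts cannot be told apart, and the genotype labels name a control plasmid where the titles name siCtrl.

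Autophagy encloses cytoplasm in a double membrane and delivers it to the lysosome. The ULK1 kinase starts the process, the BECN1-containing lipid kinase complex makes PI3P on the growing membrane, WIPI proteins bind that lipid, and the ATG5 conjugate attaches ATG8 proteins to the membrane. Receptors such as SQSTM1 (p62) and NBR1 bind ubiquitinated cargo and ATG8 proteins together. Because SQSTM1 and lipid-bound ATG8 proteins are themselves degraded in the lysosome, the amount of their protein also depends on flux, and the values below are transcript levels only. In bulk RNA, fewer cells and less RNA per cell cannot be told apart.

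ATG8 proteins are cut by ATG4 proteases behind a glycine near their end. Because they hold this site, the last 30 coding bases of the 4 ATG8 members are shown. They were read from GRCh38 with GENCODE release 44, 5′ to 3′ on the coding strand, each in exon 4 of 4, and capitals mark the glycine codon nearest the stop codon.
MAP1LC3B, chr16:87403068-87403097, plus strand: gagacgttcGGGatgaaattgtcagtgtaa
GABARAP, chr17:7240854-7240883, minus strand: tacagtgacgaaagtgtctacGGTctgtga
GABARAPL1, chr12:10221823-10221852, plus strand: tacagtgatgagagtgtctatGGGaaatga
GABARAPL2, chr16:75577340-75577369, plus strand: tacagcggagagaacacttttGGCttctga

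MAP1LC3B had 5 codons between this glycine, codon 120, and the stop codon, whereas each of the 3 GABARAP genes had 1 codon after the glycine at codon 116. As MAP1LC3B is the only LC3 gene shown, this difference need not hold for the LC3 branch. The coding sequence was 378 bases long in MAP1LC3B and 354 bases long in the other 3. GABARAP and GABARAPL1 were the closest pair, with 76.8% identical coding bases, and MAP1LC3B shared 50.7 to 56.3% with the other 3. No stretch of 150 bases, the read length, was shared between any of these 4 transcripts.

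The knockdown was seen in the counts. Levels are given as CPM, counts relative to the TMM-scaled library size, with the libraries of a group in the order of their replicate numbers. DDX17 had 177, 184 and 206 CPM in the control libraries but 32.1, 30.8 and 30.4 CPM after siDDX17, a log2 fold change of -2.60 ± 0.069 (SE; adjusted p = 5.9e-11). Adjusted p-values come from the quasi-likelihood test of edgeR, adjusted by Benjamini-Hochberg over all tested genes. The libraries held 30658136 to 39182371 counts. Markers were those of A549, with AKR1B10 at 4250 and KRT8 at 3291 CPM in siCtrl, although the epithelial marker EPCAM had only 0.883 CPM in siCtrl. Of the 8 genes listed for other cell types, 5 had a value, and together these reached at most 0.480 CPM in any library. In siCtrl 1, 10.2% of the tested genes differed by over 1.4-fold from the mean of siCtrl 2 and 3. The same share was not computed for siCtrl 2 or siCtrl 3. At an adjusted p under 0.05, 7617 genes were called with all libraries and 8532 without siCtrl 1. Leaving out siCtrl 2 gave 6841 and leaving out siCtrl 3 gave 7167. Values without siCtrl 1 are given below where a call or a count of calls changed.

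SQSTM1 fell and BECN1 rose in siDDX17 cells, and the other 8 members did not pass the test at an adjusted p under 0.05. The called members thus made up 20% of the list, whereas 48.8% of all tested genes were called, 24.5% up and 24.3% down. The CPM of the groups did not overlap for 4 members (SQSTM1, NBR1, BECN1 and WIPI1), against 56.5% of all tested genes. The median log2 fold change of the 10 members was -0.10, beside 0.01 over all tested genes. With the limits of the study's methods, an unadjusted p under 0.01 and a fold change over 1.5, SQSTM1 was the only member called, while 19.0% of all tested genes were called, 8.03% down and 11.0% up. SQSTM1 was also the only member past a log2 fold change of 1 at an adjusted p under 0.05, limits that 7.57% of all tested genes passed, 2.92% down and 4.65% up. Without siCtrl 1, 2 members rose and 2 fell, against 53.3% of all tested genes called, 26.4% up and 27.0% down.

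**Figure D1:**
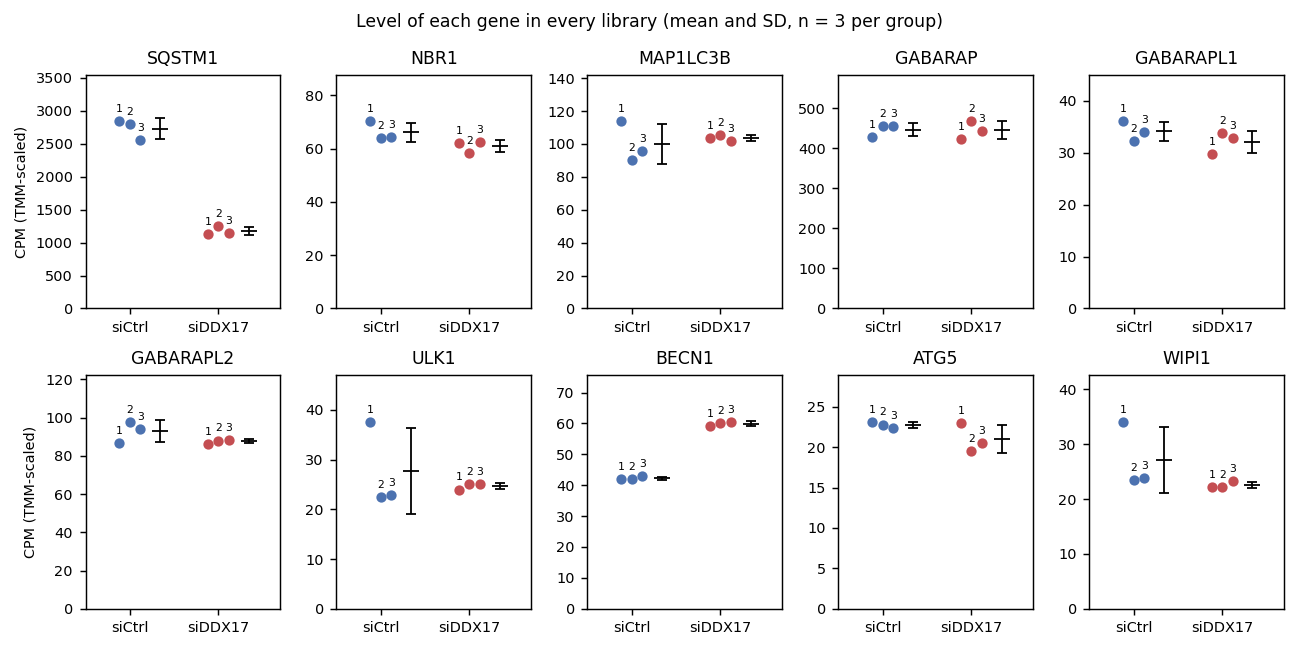
CPM (TMM-scaled, vertical axis from 0) of each of the 10 genes in the 3 siCtrl libraries (blue) and 3 siDDX17 libraries (red), with the replicate number above each point and the mean and SD beside each group. SQSTM1 lay between 2554 and 2842 CPM in siCtrl and between 1128 and 1250 CPM in siDDX17, BECN1 was higher in every siDDX17 library, and siCtrl 1 was the highest library for ULK1 and WIPI1.

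SQSTM1 (ENSG00000161011; chr5:179806398-179838078, plus strand, 8 exons) encodes p62, a receptor for ubiquitinated cargo that also binds KEAP1, the inhibitor of the transcription factor NRF2. The control libraries held 2842, 2797 and 2554 CPM, and the siDDX17 libraries 1128, 1250 and 1152 CPM. The highest siDDX17 library was thus below the lowest siCtrl library, and the gap between them was wider than the spread within either group. The log2 fold change was -1.21 ± 0.066 (SE, n = 3 per group; 95% interval -1.36 to -1.07; adjusted p = 1.4e-08), or 2.32-fold lower. Leaving out siCtrl 1 gave -1.20. These values rest on 43462 to 96235 reads per library.

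SQSTM1 was also by far the most abundant member. In FPKM, which is scaled by gene length and so allows levels of different genes to be compared, it had 720 ± 45.6 (SD, n = 3) in siCtrl, rank 103 of 15615 tested genes, and 339 ± 15.6 in siDDX17. It took 0.261% of all counts in siCtrl and 0.123% in siDDX17. The second receptor, NBR1, had 11.997 ± 0.893 FPKM in siCtrl. The ratio of SQSTM1 to NBR1 in FPKM was 58.8, 63.8 and 57.6 in the controls and 26.4, 31.2 and 26.7 after knockdown, so that SQSTM1 remained the far more abundant receptor transcript in each library.

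NBR1 (ENSG00000188554; chr17:43170481-43211689, plus strand, 21 exons), a receptor that shares the PB1, ubiquitin-binding and ATG8-binding architecture of SQSTM1, had 70.3, 63.8 and 64.5 CPM in the controls, against 62.1, 58.3 and 62.7 CPM with DDX17 depleted. All 3 siDDX17 values were below the siCtrl values, by little. Its log2 fold change of -0.12 ± 0.060 did not pass the test (95% interval -0.25 to 0.01; adjusted p = 0.12), and the interval does not include a change as large as that of SQSTM1.

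BECN1 (ENSG00000126581; chr17:42810134-42833350, minus strand, 12 exons) encodes Beclin 1, the regulatory subunit of the PI3 kinase complex. Its level was 42.0, 41.8 and 42.9 CPM in control cultures and 59.1, 60.2 and 60.6 CPM in knockdown cultures. The groups did not overlap and their SDs were 0.553 and 0.794 CPM. BECN1 rose by a log2 fold change of 0.51 ± 0.054 (95% interval 0.39 to 0.62; adjusted p = 5.8e-06), or 1.42-fold higher, and 0.49 without siCtrl 1. BECN1 shares 300 exon bases with PSME3 on the opposite strand, which had 555% as many counts as BECN1 and itself fell, from 329 to 250 CPM (log2 fold change -0.40, adjusted p = 3.3e-05). The libraries kept strand, but whether the counting used it is not given in the sources used here, so reads of this shared stretch cannot be told apart.

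Of the partners of Beclin 1, the catalytic subunit PIK3C3 did not pass the test, whereas ATG14, the subunit that directs the complex to autophagy, rose. The FPKM ratio of BECN1 to PIK3C3 was 25.9, 21.9 and 21.4 in the controls and 31.1, 37.7 and 32.6 in the knockdown libraries, with no overlap. The ratio of BECN1 to ATG14 was 13.6, 14.7 and 15.9 in siCtrl and 12.7, 12.2 and 12.9 in siDDX17. This ratio was therefore lower in each siDDX17 library, by a small margin.

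None of the 4 ATG8 members passed the test. GABARAP (ENSG00000170296; chr17:7240008-7242449, minus strand, 4 exons) had 428, 456 and 457 CPM in controls and 423, 468 and 444 CPM after knockdown. The groups overlapped, and the log2 fold change was -0.01 ± 0.058 (95% interval -0.13 to 0.12; adjusted p = 0.94). Its sign depended on the scaling: 0.12 with library size only.

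MAP1LC3B (ENSG00000140941; chr16:87383953-87404779, plus strand, 4 exons), which encodes LC3B, the usual marker of autophagosomes, had 114, 90.5 and 95.9 CPM in the control cultures, and 104, 106 and 102 CPM in those with siDDX17. The 3 siDDX17 values lay between siCtrl 1 and the other siCtrl libraries. This gave a log2 fold change of 0.05 ± 0.075 (95% interval -0.11 to 0.21; adjusted p = 0.60). Without siCtrl 1 it was 0.14 and passed the test (adjusted p = 0.0198), so its call rests on that library.

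GABARAPL2 (ENSG00000034713; chr16:75566375-75577881, plus strand, 4 exons), also called GATE-16, had 86.7, 97.9 and 94.0 CPM in controls and 86.3, 88.0 and 88.3 CPM after knockdown. Here siCtrl 1 was the lowest control and lay among the siDDX17 values. The log2 fold change was -0.08 ± 0.059 (95% interval -0.21 to 0.04; adjusted p = 0.25), and without siCtrl 1 it was -0.14 (adjusted p = 0.0188).

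GABARAPL1 (ENSG00000139112; chr12:10212458-10223128, plus strand, 4 exons), the closest relative of GABARAP, had 36.0, 32.3 and 33.97 CPM in controls and 29.7, 33.8 and 32.8 CPM in knockdown libraries. The groups overlapped and the log2 fold change was -0.09 ± 0.071 (95% interval -0.24 to 0.07; adjusted p = 0.34). For each of the ATG8 members, the interval leaves out a change of 1.5-fold in either direction, with all 6 libraries and without siCtrl 1.

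The makeup of the ATG8 transcript pool was compared as the share of each gene in the summed FPKM of the 4 genes. GABARAP took 63.6% ± 0.986 (SD, n = 3) of the pool in siCtrl and 64.2% ± 0.803 in siDDX17, GABARAPL2 21.96% ± 0.911 and 21.0% ± 0.597, MAP1LC3B 10.7% ± 1.55 and 11.3% ± 0.360, and GABARAPL1 3.68% ± 0.280 and 3.51% ± 0.116. The order of the 4 genes was the same in every library. The difference of siDDX17 from siCtrl was -0.95 percentage points for GABARAPL2 (-1.41 without siCtrl 1 and -0.50 without siCtrl 2), 0.58 points for GABARAP (0.0161 without siCtrl 1) and 0.53 points for MAP1LC3B (1.41 without siCtrl 1 and -0.0518 without siCtrl 2). The exact two-sided permutation test gave p = 0.3 to 0.5 (adjusted p = 0.5 for each), but with 3 against 3 libraries it cannot go below 0.1, so it shows neither a difference nor stability of the shares.

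The summed FPKM of the pool was 283, 281 and 288 in the controls and 295, 314 and 309 after knockdown (exact permutation p = 0.1, the smallest possible). The groups did not overlap on this scale. FPKM lack the TMM scaling of the CPM, and scaling by library size only raised the all-gene median of the log2 fold change by 0.12, so the higher sum cannot be told apart from a difference in scaling. The ATG8 gene MAP1LC3A was low, with 8.58 CPM in siCtrl, and its log2 fold change of -0.18 did not pass the test (adjusted p = 0.20), whereas without siCtrl 1 it was -0.28 (adjusted p = 0.0225).

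**Figure D2:**
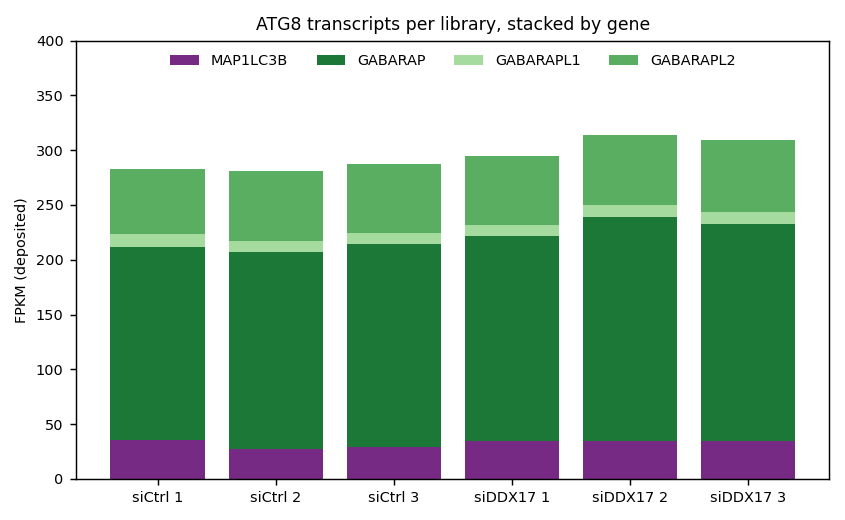
Deposited FPKM (vertical axis from 0) of MAP1LC3B, GABARAP, GABARAPL1 and GABARAPL2, stacked for each of the 6 libraries. GABARAP is the tallest segment in each library (63.6% of the sum in siCtrl and 64.2% in siDDX17 on average), and the sums run from 281 to 288 in siCtrl and from 295 to 314 in siDDX17.

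The remaining core factors did not pass the test. ULK1 (ENSG00000177169; chr12:131894622-131923150, plus strand, 28 exons), the initiating kinase, had 37.6, 22.5 and 22.9 CPM in controls and 24.0, 25.04 and 25.02 CPM in the knockdown libraries. A single library, siCtrl 1, was above all others, while the other siCtrl libraries were below all siDDX17 libraries. The log2 fold change was -0.17 ± 0.152 (95% interval -0.49 to 0.16; adjusted p = 0.39) with all libraries and 0.11 (adjusted p = 0.20) without siCtrl 1, a change of sign.

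WIPI1 (ENSG00000070540; chr17:68420948-68457513, minus strand, 13 exons), which binds PI3P on the forming membrane, had 34.1, 23.4 and 23.9 CPM in controls and 22.2, 22.2 and 23.3 CPM after knockdown. The groups did not overlap, but siCtrl 2 and 3 lay close to the siDDX17 values. The log2 fold change was -0.27 ± 0.119 (95% interval -0.52 to -0.01; adjusted p = 0.080) and -0.08 without siCtrl 1 (adjusted p = 0.38). Without siCtrl 2 or siCtrl 3 it passed the test, at -0.37 (adjusted p = 0.026) and -0.36 (adjusted p = 0.022).

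ATG5 (ENSG00000057663; chr6:106045423-106325791, minus strand, 8 exons) is joined to ATG12 in the conjugate that places ATG8 proteins on the membrane. Control cultures had 23.2, 22.8 and 22.4 CPM, and knockdown cultures 23.0, 19.5 and 20.5 CPM. The library siDDX17 1 lay within the siCtrl range, and the log2 fold change of -0.12 ± 0.077 did not pass the test (95% interval -0.28 to 0.05; adjusted p = 0.23).

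**Figure D3:**
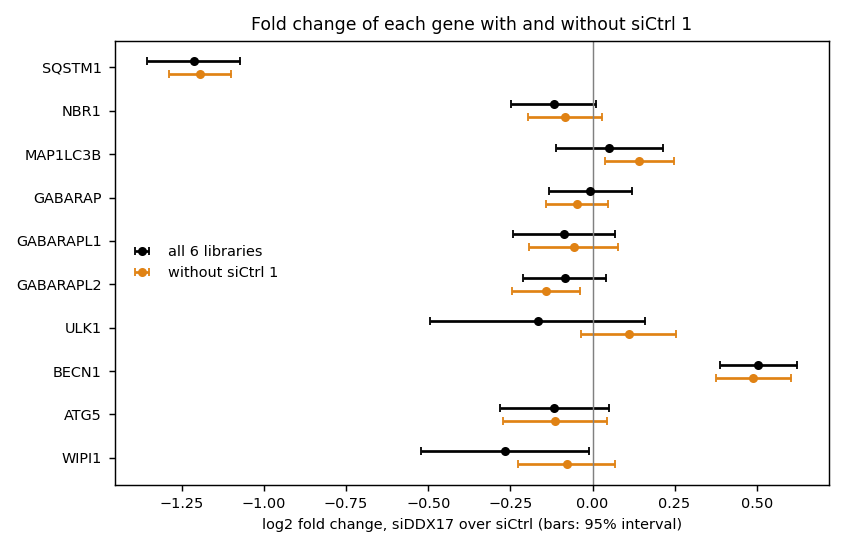
Log2 fold change of siDDX17 over siCtrl (horizontal axis) for each of the 10 genes with all 6 libraries (black) and without siCtrl 1 (orange). Bars show the 95% interval derived from edgeR's fit. SQSTM1 (-1.21 and -1.20) and BECN1 (0.51 and 0.49) keep their place, while ULK1 moves from -0.17 to 0.11 and WIPI1 from -0.27 to -0.08.

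By FPKM in siCtrl, the order of the members ran from SQSTM1 (720) through GABARAP (181), GABARAPL2 (62.3), MAP1LC3B (30.4), BECN1 (18.1), WIPI1 (13.2), NBR1 (11.997), GABARAPL1 (10.5) and ATG5 (6.16) to ULK1 (4.79). The libraries of WIPI1 and NBR1 overlapped in this order, and so did those of ATG5 and ULK1. The other neighbours did not overlap.

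In siCtrl 1, ULK1 stood at 1.66 times the mean of siCtrl 2 and 3, WIPI1 at 1.44 times, MAP1LC3B at 1.22 times and GABARAPL2 at 0.904 times, whereas SQSTM1 stood at 1.06 times and BECN1 at 0.991 times. Of 11 listed ATF4 targets, ATF4 itself included, 9 were above and 2 below that mean in siCtrl 1, from 0.824 to 4.81 times. The 3 most abundant were ATF4 at 1.41 times, DDIT4 at 1.32 times and ASNS at 0.824 times. In these genes siCtrl 2 and 3 also differed, with 485 and 379 CPM for ATF4, 395 and 374 for DDIT4, and 245 and 295 for ASNS. The summed CPM of the list was 2472, 1800 and 1658 in the controls and 1414 to 1474 after knockdown. Of these 11 genes, 7 fell and 0 rose with all libraries, and 8 fell and 1 rose without siCtrl 1. The called share was 63.6% with all libraries, against 48.8% of all tested genes, 24.3% down. The CPM of the groups did not overlap for 4 of the 11, against 56.5% of all tested genes. The part of these ATF4 targets in the values of ULK1, WIPI1, MAP1LC3B and GABARAPL2 was not tested.

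**Figure D4:**
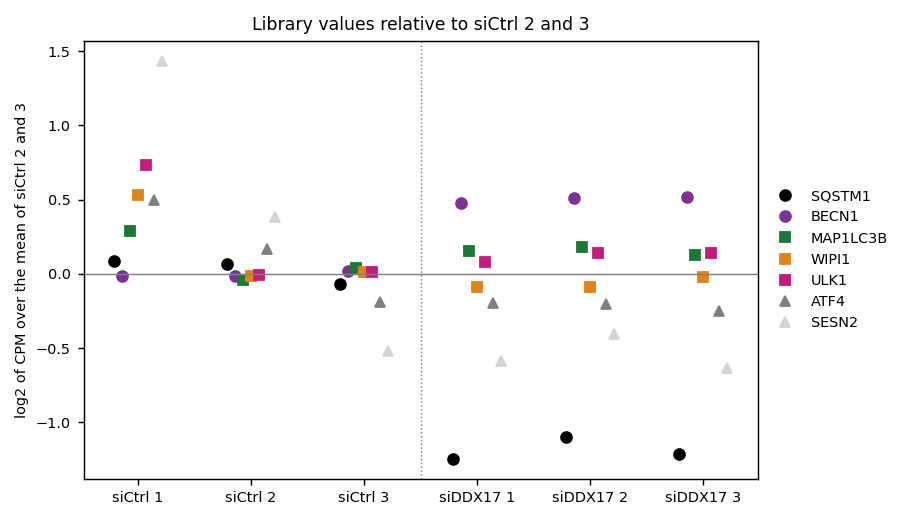
Log2 of CPM over the mean of siCtrl 2 and 3 (vertical axis) in each of the 6 libraries for SQSTM1, BECN1, MAP1LC3B, WIPI1 and ULK1 and for the stress genes ATF4 and SESN2. In siCtrl 1, ULK1, WIPI1, ATF4 and SESN2 lie above 0 (1.66, 1.44, 1.41 and 2.70 times the mean on a linear scale), whereas SQSTM1 and BECN1 lie near it and separate only in the siDDX17 libraries.

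SQSTM1 is a known target of NRF2, which is constitutively active in A549 cells. Of 11 other listed NRF2 targets, 8 fell and 0 rose, with a median log2 fold change of -0.33, and 9 fell without siCtrl 1. The called share was 72.7% with all libraries, against 48.8% of all tested genes, 24.3% down. Without siCtrl 1, 53.3% of all tested genes were called, 27.0% down. The summed CPM of this list was 13000 to 14032 in siCtrl and 10895 to 11305 in siDDX17. The most abundant were AKR1B10 (log2 fold change -0.33, adjusted p = 0.00115) and NQO1 (-0.22, adjusted p = 0.00711). Each of the 11 had a smaller change than SQSTM1. Of 10 lysosomal targets of TFEB, a transcription factor that also acts on SQSTM1, 2 rose and 4 fell, a called share of 60.0%. The part of either factor in the fall of SQSTM1 was not tested.

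The RefSeq promoters of the members (GRCh38.p14, from 250 bases before to 50 bases after the start) were searched on both strands for CACGTG, the E-box, for TCACGTGA, a TFEB-type site that contains the E-box, for TGACNNNGC, the core of the NRF2 site, and for TGATGNAA, the ATF4 site. Over 35116 promoters these were present in 7.26%, 0.980%, 13.3% and 3.62%. Sites further from the start were not searched, so a missing match does not show that a member lacks the site. The 10 members had 14 such promoters, and the only match was TGACNNNGC in MAP1LC3B, 46 bases before the start. It is shown with its surroundings, the match in capitals, since it was the only match.
MAP1LC3B, chr16:87392280-87392309, plus strand: gcgagtcaccTGACCAGGCtgcgggctgag

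Over the 6 libraries, SLC25A14 (Pearson r = 0.9996 of log2 CPM), NIPAL4 (r = 0.9994) and UBE2M (r = 0.9993) were most like SQSTM1 among 8965 genes, of which 1303 reached 0.95. The likeness follows the difference between the groups, which these libraries share. SLC25A14 had 13.3, 13.2 and 12.3 CPM in controls and 4.62, 5.24 and 4.75 CPM after knockdown. For MAP1LC3B, the most alike were TDRKH (r = 0.997), RABGAP1 (r = 0.988) and ROCK1 (r = 0.987), and 20 genes reached 0.95. As in MAP1LC3B, the siCtrl 1 value was the highest of the 6 in each of these 3 genes. This follows from choosing them by r over the same libraries.

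Of 86 other listed autophagy genes, 82 were tested, and 16 rose, 26 fell and 40 did not pass, with a median log2 fold change of -0.06. With all libraries, the called share of 51.2% was near that of all tested genes, 48.8%. With library size only, the split was 25 up and 16 down, so the direction of the surplus depends on the scaling. The same scaling moved the calls over all genes from 3819 up and 3798 down to 5230 up and 2494 down. Without siCtrl 1, 20 rose and 34 fell, against 53.3% of all tested genes called, 26.4% up and 27.0% down. Past a fold change of 1.5 there were 5 genes up and 6 down. With the limits of the study's methods, 4 of the 82 were up and 6 down. At those limits 19.0% of all tested genes were called, 11.0% up and 8.03% down. Whether the list differs from all tested genes at these limits was not tested. The 4 genes not tested, MAP1LC3B2, MAP1LC3C, ATG9B and RUBCNL, were near 0.

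Among 20 other receptors, 6 rose and 3 fell, a called share of 45.0% against 48.8% of all tested genes, and without siCtrl 1, 7 rose and 5 fell. BNIP3, a mitophagy receptor induced by hypoxia, had 233, 248 and 261 CPM in controls and 156, 149 and 153 CPM after knockdown (log2 fold change -0.69, adjusted p = 6.3e-07), and the groups did not overlap. The largest rise was that of the ER-phagy receptor RETREG1 (0.81, adjusted p = 0.039), at a level of only 0.364 CPM in siCtrl and 0.650 CPM in siDDX17. This call was lost without siCtrl 1 (adjusted p = 0.11). The remaining receptors that rose were CALCOCO2, BCL2L13, SEC62, CCPG1 and RTN3, and the others that fell were BNIP3L and PHB2.

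In the ULK complex, ULK2, the second initiating kinase, rose from 8.31 ± 0.463 to 12.7 ± 0.436 CPM (log2 fold change 0.62, adjusted p = 6.5e-05), while the adaptor subunit ATG101 fell from 80.1 ± 0.395 to 60.9 ± 3.03 CPM (-0.40, adjusted p = 7.1e-05). ATG13 also fell and RB1CC1 did not pass. In the PI3 kinase complexes, 2 of 7 partners rose and 2 fell (3 and 2 without siCtrl 1). Their called share was 57.1%, against 48.8% of all tested genes. ATG14 had 6.82, 6.29 and 6.005 CPM in controls and 10.3, 11.0 and 10.5 CPM after knockdown (0.73, adjusted p = 2.8e-05). RUBCN, which encodes Rubicon, an inhibitor of autophagosome maturation, had 10.7, 10.2 and 10.2 CPM in controls and 5.71, 5.87 and 5.79 CPM after knockdown (-0.84, adjusted p = 6.0e-06). Neither ATG14 nor RUBCN overlapped between the groups.

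Of the 10 conjugation enzymes and ATG4 proteases besides ATG5, 1 rose and 5 fell, and without siCtrl 1, 1 rose and 7 fell. The called share was 60.0% with all libraries, against 48.8% of all tested genes, 24.5% up and 24.3% down. Without siCtrl 1, 53.3% of all tested genes were called. ATG10, the E2-like enzyme that joins ATG12 to ATG5, rose (0.48, adjusted p = 0.000675), and ATG4D, a protease that cuts ATG8 proteins at the glycine shown above, had the largest fall (-0.52, adjusted p = 7.5e-05). ATG12, ATG3, ATG7 and ATG4B were the others that fell. ATG12, the partner of ATG5, had 48.2, 49.9 and 45.4 CPM in controls and 38.2, 38.2 and 36.5 CPM after knockdown.

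Of 9 PI3P effectors and lipid supply genes, 2 rose and 5 fell (3 and 5 without siCtrl 1). Their called share was 77.8%, against 48.8% of all tested genes. WIPI2, the WIPI1 paralog that recruits the conjugation machinery, had 41.8, 41.3 and 42.5 CPM in controls and 62.4, 66.2 and 58.2 CPM after knockdown (0.57, adjusted p = 5.9e-06), above the siCtrl range in each library. ZFYVE1, the PI3P-binding protein DFCP1, fell by 0.87 on the log2 scale (adjusted p = 8.8e-07), and ATG9A, the lipid scramblase of autophagosome precursors, fell by 0.60 (adjusted p = 3.2e-06). Against 48.8% of all tested genes, 42.9% of the 14 genes of fusion with lysosomes were called. Of these 14, 2 rose and 4 fell (2 and 6 without siCtrl 1). Among them, the fusion SNARE STX17 rose (0.43, adjusted p = 0.025) at 2.64 CPM in siCtrl, and VPS33A, a tethering complex subunit, had 29.9, 27.3 and 27.7 CPM in controls and 14.3, 15.4 and 15.3 CPM after knockdown (-0.92, adjusted p = 3.9e-07).

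Of 17 upstream regulators, 2 rose and 5 fell (3 and 6 without siCtrl 1). Their called share was 41.2%, against 48.8% of all tested genes. PRKAA2, a catalytic subunit of AMPK, rose from 3.65 ± 0.736 to 6.48 ± 0.756 CPM (0.84, adjusted p = 0.000437), and TFEB rose from 6.83 ± 1.20 to 11.0 ± 0.664 CPM (0.68, adjusted p = 0.00039). SESN2, a leucine sensor and stress gene, had 67.1, 32.3 and 17.3 CPM in controls and 16.5, 18.7 and 15.99 CPM after knockdown. The log2 fold change of -1.19 (adjusted p = 0.0087) came to -0.53 without siCtrl 1 (adjusted p = 0.000383), and siCtrl 3 lay within the siDDX17 range.

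**Figure D5:**
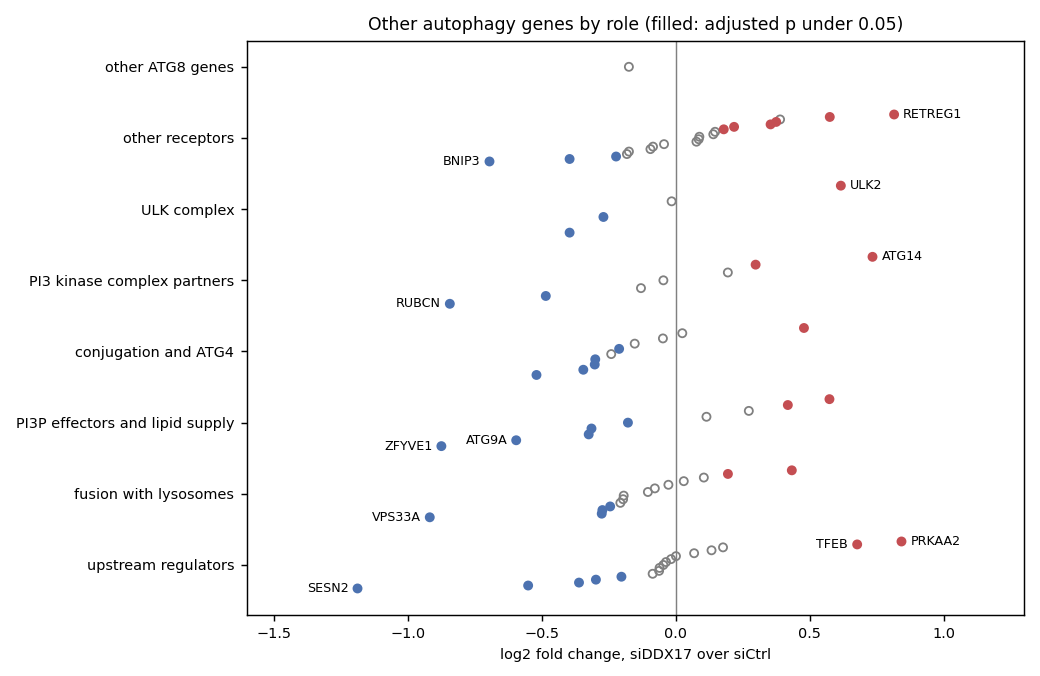
Log2 fold change of siDDX17 over siCtrl (horizontal axis) for the 82 tested autophagy genes outside the 10 members, in rows by role. Filled points passed at an adjusted p under 0.05 (16 up in red, 26 down in blue), open points did not, and the 11 named genes are those past a fold change of 1.5.

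Some members share sequence with other genes. In 46.4% of the 150-base windows of GABARAP the sequence is also that of ENSG00000262526, a readthrough transcript on the same strand that had 3.70% as many counts, and 8.81% of the windows of MAP1LC3B are also in MAP1LC3B2, which had 0.239 CPM in siCtrl. The other 8 members shared no identical window, and stretches that match with mismatches were not searched. On the opposite strand, SQSTM1 shares 1582 exon bases with MRNIP and 105 with MGAT4B, which had 0.375% and 10.0% as many counts as SQSTM1. With all libraries neither neighbour passed the test (log2 fold changes of 0.07 and -0.09), and MGAT4B passed without siCtrl 1 (-0.12, adjusted p = 0.0297). MAP1LC3B shares 60 exon bases with FBXO31, which rose (0.57, adjusted p = 4.3e-05) and had 17.1% as many counts. WIPI1 shares 829 exon bases with ARSG, which had 17.4% as many counts and a log2 fold change of 0.35 that did not pass with all libraries (adjusted p = 0.067) and was 0.42 without siCtrl 1 (adjusted p = 0.0158).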

How the data were processed

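A549 libraries (3 siCtrl, 3 siDDX17) were grouped by their titles, and the study calls them biological replicates. The authors mapped reads to GRCh38 with TopHat2, kept unique reads, and deposited raw counts and FPKM per gene. The counting program, annotation and use of strand are not given in the sources used here. From the deposited counts (30658136 to 39182371 per library), edgeR 4.0.16 in R 4.3.3 was run with TMM, filterByExpr (15615 of 29476 genes), glmQLFit, glmQLFTest and Benjamini-Hochberg adjustment over all tested genes. The SE was derived as the absolute log2 fold change over the square root of the F statistic of that test. The 95% intervals come from this SE and the t distribution. The filter removes low genes, and the scaling sets which genes count as higher. Tested on simulated data (15451 genes), the fit called 85 of 98 genes changed by a log2 of 1 and 65 of 99 changed by 0.585, with 8 unchanged genes. Far fewer genes were changed there, balanced by design between up and down, than the 48.8% of tested genes called here. The simulation therefore does not test the scaling in these data.

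The members and gene lists were chosen with earlier results of these data known. Named genes were all members, DDX17, per role the largest called rise and fall, pathway genes past an adjusted p of 0.05 and a fold of 1.5, copies and overlapping neighbours, and the 3 genes most like SQSTM1 and MAP1LC3B (Pearson r, average log2 CPM of at least 3). Of the targets of other factors, at most 3 examples per list were named, the most abundant in siCtrl, and 1 of these is not reported here. Other called members of a role, PIK3C3, RB1CC1, MAP1LC3A and EPCAM were named after their values were seen. Of 86 pathway symbols, 82 matched by symbol and 4 by identifier. Alternatives were DESeq2 1.42.0, edgeR's exact test, RLE, upper quartile and library size scaling, 2 filters, limma 3.58.1 on log2(FPKM + 1) and log2(FPKM + 0.1), a replicate block, a log2 limit of 1 and each library left out. CPM used in correlations carried a prior count of 2. Promoters came from RefSeq and gene positions from GENCODE release 44. Tables were joined with pandas 2.3.3 and numpy 2.4.6 in Python 3.11.15, exact tests were run with scipy 1.17.1, and plots were drawn with matplotlib 3.10.9.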

Additional observations from a re-analysis of the deposited data

How the results depend on the processing

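SQSTM1 stayed between -1.26 and -1.08 on the log2 scale (adjusted p at most 7.6e-06) under each alternative run. Of 176 recomputed log2 fold changes of the members and DDX17, 148 kept their direction and side of the threshold, 6 passed it newly and 22 turned sign. Of 106 recomputed counts of called genes, 87 lay within 1.5 times the count given and 19 did not, and of 32 recomputed differences in ATG8 shares 1 turned sign. Members up were 0 and members down 1 with a log2 limit of 1, and members down were 2 with DESeq2 and with no filter, WIPI1 being the added gene. Leaving out a library gave 1 to 2 members up and 1 to 2 down. With the limits of the methods, 1 member was up with library size only and with limma on either FPKM scale. Pathway genes up were 25 with library size only and both limma fits and 0 with the log2 limit, and pathway genes down were 16, 14, 14 and 1, while leaving out a library gave 11 to 20 up and 23 to 34 down. Sign changes with library size only, log2(FPKM + 1) and log2(FPKM + 0.1) were NBR1 0.00376, 0.0104 and 0.0112, GABARAP 0.117, 0.121 and 0.122, GABARAPL1 0.0346, 0.0389 and 0.0422, GABARAPL2 0.0392, 0.0447 and 0.0453, and ATG5 0.00637, 0.00763 and 0.00834, in fits whose scaling raised the median of all genes by 0.122, 0.0627 and 0.118. ULK1 was 0.00483 on log2(FPKM + 0.1). GABARAP was 0.0240 with upper quartile scaling and 0.00611 with at least 10 counts in every library. With each library left out in turn, GABARAP ranged from -0.0473 (without siCtrl 1) to 0.0276 (without siDDX17 1), MAP1LC3B from -0.0232 (without siCtrl 2) to 0.143 (without siCtrl 1), ULK1 from -0.298 (without siCtrl 2) to 0.110 (without siCtrl 1), and the MAP1LC3B share of the ATG8 pool from -0.0518 (without siCtrl 2) to 1.41 percentage points (without siCtrl 1). The cause of these moves was not tested.

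Same-numbered libraries did not deviate together (correlations 0.00698, 0.0407 and -0.0564 over 15615 genes). Differently numbered libraries gave correlations from -0.0624 to 0.0566. With 3 libraries per group this cannot exclude that the samples were handled in pairs. With the replicate block, 3743 genes were up and 3738 down, against 3819 and 3798, and 1 member was up and 1 down. Groups of 3 limit the exact tests to a p of 0.1 or more. The ATG8 shares rest on FPKM, whose counting error was not modelled.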
